A study of Mus musculus with 6 samples.

Results

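The 10 genes described here encode neuropeptide precursors and proteins of the secretory granule. They are Cck, Npy, Tac1, Penk, Pdyn, Adcyap1, Crh, Vgf, Scg2 and Pcsk1, chosen by gene symbol out of 23235 genes by the authors' deposited tables, and all 10 symbols matched exactly 1 gene. The series compares 3 groups of neurons cultured from the cortex and hippocampus of mouse embryos, with 2 RNA sequencing libraries per group: a control, a knockdown with HDAC2 shRNAs and a knockdown with Sp3 shRNAs. HDAC2 is a histone deacetylase and Sp3 a transcription factor of the Sp family, which recognizes GC-rich DNA, and the series asks whether both act on a common set of genes. All groups came from embryonic day 15 and were kept for 17 days in culture. All received 1 uM AraC, which blocks dividing cells, on day 5, and a lentivirus for the hairpin RNA on day 12. Neither the mouse strain nor the control hairpin is named in the labels. Each group is deposited as 1 FPKM value per gene (fragments scaled to transcript length and to the number of mapped fragments), so no value per library and no spread within a group can be shown. Whether the paired libraries of a group are separate cultures is not stated, and p-values may then measure technical spread only.

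Neuropeptides are made as long precursors, which are sorted into dense core granules, cut at pairs of basic residues by prohormone convertases such as the product of Pcsk1, trimmed, often amidated, and released by calcium. Granin family proteins such as secretogranin II (Scg2) and the related secreted protein VGF fill the granules and are themselves cut into peptides. In cortex and hippocampus many of these precursors mark interneuron types, and transcription of several of them is known to follow neuronal activity through the cyclic AMP response element (CRE), the site bound by CREB. The GC box is the core of the element bound by Sp proteins.

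The sequences before the annotated starts are shown for 4 genes, picked for these elements or for clear changes of level. So picked, they cannot show a tie between element and change. Tac1 and Adcyap1, which also hold matches and were called in neither knockdown, are not printed. The sequences are 250 bases long, end 1 base before the start, run 5′ to 3′ on the strand of the gene, and come from RefSeq on build GRCm38.p6. Capitals mark matches on either strand to the CRE (TGACGTCA), its half-site (TGACG, which a full CRE also holds on both strands) and the GC box (GGGCGG). Cck lies at chr9:121495695-121495944 on the minus strand, Npy at chr6:49822460-49822709 on the plus strand, Scg2 at chr1:79440027-79440276 on the minus strand and Pcsk1 at chr13:75089607-75089856 on the plus strand.
Cck: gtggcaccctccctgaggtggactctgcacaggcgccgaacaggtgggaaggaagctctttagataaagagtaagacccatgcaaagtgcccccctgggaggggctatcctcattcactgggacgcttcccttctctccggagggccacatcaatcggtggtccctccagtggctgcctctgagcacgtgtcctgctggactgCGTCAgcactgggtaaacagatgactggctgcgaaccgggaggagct
Npy: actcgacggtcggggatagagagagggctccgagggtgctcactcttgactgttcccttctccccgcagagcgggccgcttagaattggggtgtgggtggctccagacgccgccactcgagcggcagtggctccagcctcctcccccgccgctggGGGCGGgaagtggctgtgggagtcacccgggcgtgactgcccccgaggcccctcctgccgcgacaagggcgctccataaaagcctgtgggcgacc
Scg2: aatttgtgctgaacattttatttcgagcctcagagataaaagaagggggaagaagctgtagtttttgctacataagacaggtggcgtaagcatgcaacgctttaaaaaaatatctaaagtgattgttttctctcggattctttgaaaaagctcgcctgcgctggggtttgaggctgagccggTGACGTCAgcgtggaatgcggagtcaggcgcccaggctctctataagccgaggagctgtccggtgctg
Pcsk1: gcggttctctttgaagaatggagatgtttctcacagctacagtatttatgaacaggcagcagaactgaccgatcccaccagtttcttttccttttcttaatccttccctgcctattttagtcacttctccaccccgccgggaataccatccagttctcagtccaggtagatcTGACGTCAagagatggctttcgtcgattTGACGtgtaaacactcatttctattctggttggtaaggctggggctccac

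A promoter entry was matched for 7 of the 10 genes, and Penk, Crh and Vgf had no entry. Scg2 held a full CRE from -68 to -61 and Pcsk1 one from -78 to -71, counted in bases from the start, and Pcsk1 held a further half-site from -50 to -46. A full CRE was present before 1.77% of the 27025 genes with an entry. Cck held a half-site from -47 to -43, Tac1 held 2 half-sites, and Adcyap1 held 1, which lies in the overlap of its 2 windows at -91 from the first start and -242 from the second, against 19.8% of all genes with at least 1. A GC box was found before Npy, from -95 to -90, and before Tac1, from -107 to -102, against 35.4% of all genes. Pdyn had 2 windows without a match to any of these letters. Such matches describe the letters of these windows and do not show that a factor binds there.

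**Figure D1:**
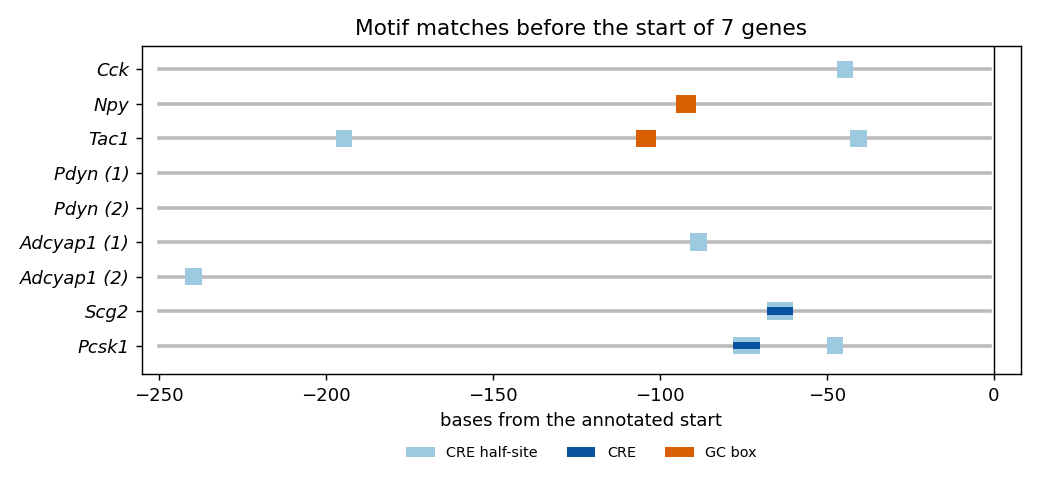
Positions of CRE, CRE half-site and GC box matches in the 250 bases before the annotated start of the 7 genes with a promoter entry, with 2 windows for Pdyn and for Adcyap1. The horizontal axis is the distance in bases from the start. The full CREs of Scg2 and Pcsk1 lie between -78 and -61, and the GC boxes of Npy and Tac1 between -107 and -90.

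In control neurons the granule genes were far more abundant than most of the peptide precursors. FPKM is scaled to transcript length, so levels can be set side by side between genes. Scg2, a granin, stood at 326 FPKM and ranked 143 of 23235 genes. Vgf stood at 304 FPKM and ranked 152. Cck, which encodes cholecystokinin, was the only peptide precursor at a comparable level, at 141 FPKM. The convertase gene Pcsk1 followed at 26.4 FPKM and Adcyap1, the precursor of the cyclic AMP-raising peptide PACAP, at 12.7. Tac1, the precursor of substance P, stood at 4.94 FPKM and Npy, that of neuropeptide Y, at 2.42. The opioid precursors Pdyn (dynorphins) and Penk (enkephalins) stood at 1.89 and 1.76. Crh, which encodes corticotropin-releasing hormone, was at 0.244 FPKM in control, 0.140 in HDAC2 knockdown and 0.117 in Sp3 knockdown, and was too low for the authors' test in both tables, so 9 of the 10 genes were tested. Scg2, Vgf and Cck were the 3 most abundant of the 10 genes in all 3 groups, in another order in Sp3 knockdown, where Cck stood above Vgf. Without values per library, it cannot be said which neighbours in the order differ beyond their spread.

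**Figure D2:**
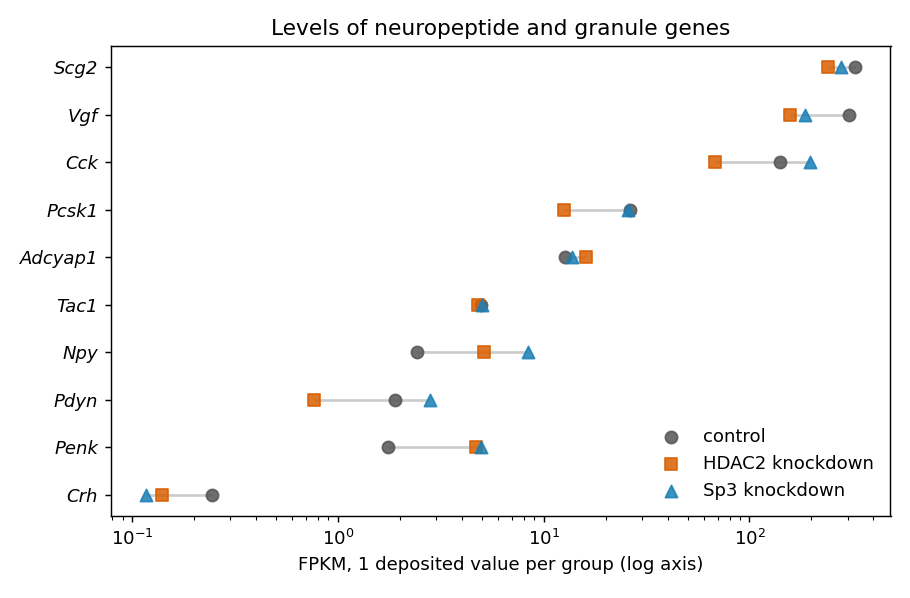
Deposited FPKM of the 10 genes in control (circles), HDAC2 knockdown (squares) and Sp3 knockdown (triangles), on a log axis, ordered by the control level, with 1 value per group and no error available. Cck lies on opposite sides of its control value of 141 FPKM in the knockdowns, whereas Penk lies to the right of its control value of 1.76 in both.

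The whole distribution of fold changes was shifted in each table, by a median log2 of 0.32 in HDAC2 and -0.13 in Sp3 knockdown over genes of at least 1 FPKM in either group. Fold changes below are therefore also given relative to that median gene (centred), as log2 ± the standard error (SE) implied by the authors' test statistic, with a normal p, as the authors' deposited p-values have, adjusted by the Benjamini-Hochberg method over all tested genes. The targets were lower in the group named for them, Hdac2 at 12.3 FPKM against 49.4 in control and Sp3 at 5.82 against 15.5. Hdac2 stood at 38.8 FPKM in Sp3 knockdown and Sp3 at 26.7 in HDAC2 knockdown, and both were called by the authors' deposited table. Both comparisons use the same control libraries. The calls rest on the normal distribution of the authors' test. With 2 libraries per group, a t distribution of 2 degrees of freedom in its place left 0 members and 0 genes called in either knockdown or for their difference. Its unadjusted p was under 0.05 for 2 members in HDAC2 knockdown, 3 in Sp3 knockdown and 2 for the difference. The share of all genes under that p is not given here, so these counts are no result about the members.

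In HDAC2 knockdown Cck and Pcsk1 fell to about equal extents and Penk rose. These 3 of 9 tested genes were called by the authors' deposited table at q under 0.05, 1 higher and 2 lower, and the same 3 after centring. Over all 13569 genes tested, 28.2% were called, 24.6% higher and 3.6% lower, and after centring 17.8% were called, 10.2% higher and 7.59% lower. The 9 genes had a centred median log2 fold change of -0.75, against -0.0044 over all tested genes. Without centring these medians were -0.44 and 0.31. In the same group the summed astrocyte markers stood at 1886 FPKM against 661 in control, and the part of that shift in these values was not tested.

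Cck (chromosome 9, 121398941 to 121404807 in mm9 as the table gives it) went from 141 FPKM in control to 68.2 in HDAC2 knockdown, 2.06-fold lower, with q = 6.69e-05 by the authors' deposited table. Its centred log2 fold change was -1.36 ± 0.23, adjusted p from the authors' statistic = 1.5e-07. Pcsk1 (chromosome 13, 75227434 to 75269946) went from 26.4 to 12.6 FPKM, 2.10-fold lower, with q = 1.19e-04 by the authors' deposited table. Its centred value was -1.38 ± 0.24, adjusted p from the authors' statistic = 4.73e-07. A precursor and a convertase gene thus fell by amounts that lay within their errors of each other. In values of whole cultures, fewer cells of a type and less RNA per cell cannot be told apart.

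Penk (chromosome 4, 4060682 to 4065592) went the other way, from 1.76 to 4.68 FPKM, 2.66-fold higher, with q = 0.00183 by the authors' deposited table. The centred value was 1.09 ± 0.39, adjusted p from the authors' statistic = 0.0314. Npy (chromosome 6, 49772727 to 49779504) stood at 2.42 FPKM in control and 5.16 in HDAC2 knockdown, with q = 0.0572 by the authors' deposited table and a centred value of 0.78 ± 0.47, adjusted p = 0.276. Pdyn (chromosome 2, 129513736 to 129515604) had the most negative centred value of the 9 genes, -1.62 ± 0.87, from 1.89 to 0.767 FPKM. Its error was so large that it was not called (q = 0.248 by the authors' deposited table, centred adjusted p = 0.205). The 2 opioid precursors therefore had point estimates of opposite sign, of which only that of Penk passed the test.

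Vgf (chromosome 5, 137506164 to 137509221) stood at 304 FPKM in control and 157 in HDAC2 knockdown, with q = 0.145 by the authors' deposited table. Its centred value of -1.27 ± 0.52 was close to those of Cck and Pcsk1, but with an error more than double theirs it was not called, adjusted p from the authors' statistic = 0.0696. Scg2 (chromosome 1, 79431243 to 79436665) stood at 326 and 241 FPKM, q = 0.652 by the authors' deposited table, with a centred value of -0.75 ± 0.68. Both intervals hold large changes, from -2.28 to -0.26 for Vgf and from -2.08 to 0.57 for Scg2 at 95% confidence after centring. Adcyap1 (chromosome 17, 93598761 to 93604829) was measured more tightly, at 12.7 and 16.1 FPKM, with a centred interval from -0.44 to 0.50. Tac1 (chromosome 6, 7505070 to 7512973) stood at 4.94 and 4.79 FPKM, with a centred interval from -1.08 to 0.36.

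In Sp3 knockdown the called changes were all rises, in the precursor genes Npy, Penk and Cck. These were 3 of 9 tested genes by the authors' deposited table, and the same 3 after centring, with 0 lower. By the authors' deposited p-values, 0 members were lower in Sp3 knockdown at an unadjusted p under 0.05, though Vgf was close to it at p = 0.0570. The share of all genes lower at that unadjusted threshold is not given here. Over all 13619 genes tested, 39.3% were called, 13.2% higher and 26.1% lower, and after centring 37.8% were called, 20.2% higher and 17.6% lower. The 9 genes had a centred median of 0.25, against -0.0017 over all tested genes. Without centring these medians were 0.12 and -0.13.

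Npy went from 2.42 FPKM in control to 8.40 in Sp3 knockdown, 3.48-fold higher, the largest fold of the 9 tested genes, with q = 4.91e-05 by the authors' deposited table. Its centred log2 fold change was 1.93 ± 0.39, adjusted p from the authors' statistic = 6.99e-06. Penk went from 1.76 to 4.94 FPKM, 2.81-fold higher, with q = 2.06e-05 by the authors' deposited table and a centred value of 1.62 ± 0.31, adjusted p = 1.74e-06. Cck went from 141 to 197 FPKM, 1.41-fold higher, with q = 2.97e-05 by the authors' deposited table. Its centred value was 0.62 ± 0.10, adjusted p from the authors' statistic = 2.96e-08. The rise of Cck was thus the smallest of the 3 and had the smallest error.

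Pcsk1, which fell in HDAC2 knockdown, stood at 26.4 FPKM in control and 25.7 in Sp3 knockdown, with q = 0.810 by the authors' deposited table. Its centred value of 0.094 ± 0.11, which is -0.038 without centring, had an interval from -0.11 to 0.30, so a fall of the size seen in HDAC2 knockdown lay outside it. Pdyn stood at 1.89 and 2.81 FPKM, with a centred value of 0.70 ± 0.47, adjusted p from the authors' statistic = 0.238. Vgf stood at 304 and 186 FPKM, q = 0.132 by the authors' deposited table, with a centred value of -0.58 ± 0.37. Scg2 stood at 326 and 279 FPKM, with a centred value of -0.093 ± 0.48. Adcyap1, at 12.7 and 13.8 FPKM, had a centred value of 0.25 ± 0.13, adjusted p from the authors' statistic = 0.109, and Tac1, at 4.94 and 4.99 FPKM, one of 0.15 ± 0.28.

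The difference between the knockdowns was tested for each gene as the difference of the centred log2 fold changes. Its error counts the shared control in both terms and so errs on the wide side. Cck and Pcsk1 differed, both higher in Sp3 than in HDAC2 knockdown. These were 2 of 9 genes, against 14.7% of all 13277 genes tested in both tables, 6.87% higher and 7.86% lower in Sp3 knockdown. Cck stood at 197 FPKM in Sp3 and 68.2 in HDAC2 knockdown, a ratio of 2.89, and the centred difference was 1.98 ± 0.25, adjusted p from the authors' statistic = 1.22e-12. Pcsk1 stood at 25.7 and 12.6 FPKM, a ratio of 2.04, with a centred difference of 1.48 ± 0.27, adjusted p from the authors' statistic = 1.47e-06. Pdyn had the highest ratio of FPKM, 3.66, and a centred difference of 2.32 ± 0.98 that did not pass, adjusted p from the authors' statistic = 0.0995. Penk stood at 4.94 and 4.68 FPKM and its difference of 0.53 ± 0.50 had an interval from -0.45 to 1.50. For Npy the difference was 1.15 ± 0.61, adjusted p from the authors' statistic = 0.221, so its call in Sp3 knockdown alone does not show that the knockdowns differ. The intervals of Tac1 (-0.39 to 1.41), Adcyap1 (-0.31 to 0.76), Vgf (-0.56 to 1.94) and Scg2 (-0.96 to 2.28) also held 0.

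**Figure D3:**
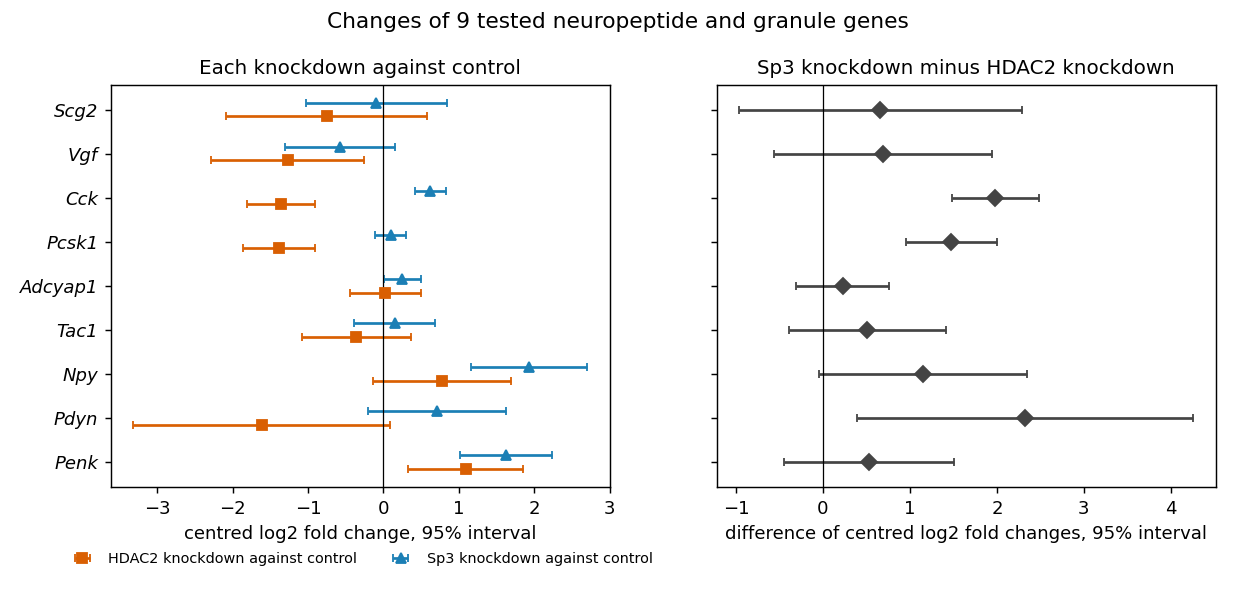
Left, centred log2 fold change against control of the 9 tested genes in HDAC2 knockdown (squares) and Sp3 knockdown (triangles). Right, the difference between the knockdowns, with Sp3 higher to the right. Bars are 95% intervals from the implied standard errors. The Cck interval lies below 0 in HDAC2 knockdown (upper end -0.90) and above 0 in Sp3 knockdown (lower end 0.42), and the differences of Cck, Pcsk1 and Pdyn have intervals above 0, of which that of Pdyn did not pass after adjustment.

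How small a change could be called differed widely among these genes. Among genes within 2-fold of its mean level, Cck had a smaller implied SE than most, with 21.8% of 1253 such genes below it in the HDAC2 and 12.8% of 569 in the Sp3 comparison. Vgf and Scg2 had larger ones than most, with 73.0% and 81.6% of such genes below them in the HDAC2 comparison and 79.7% and 82.3% in the Sp3 comparison. The low precursors stood out more. For Npy 95.8% and 97.7% of genes of like level had a smaller SE, and for Pdyn 95.6% and 93.3%. Over all genes the implied SE was smallest at middle levels and rose again among abundant genes. In Sp3 knockdown its median was 0.11 between 16 and 32 FPKM and 0.30 between 256 and 512 FPKM, the range that holds Scg2. In HDAC2 knockdown the same medians were 0.24 and 0.43.

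**Figure D4:**
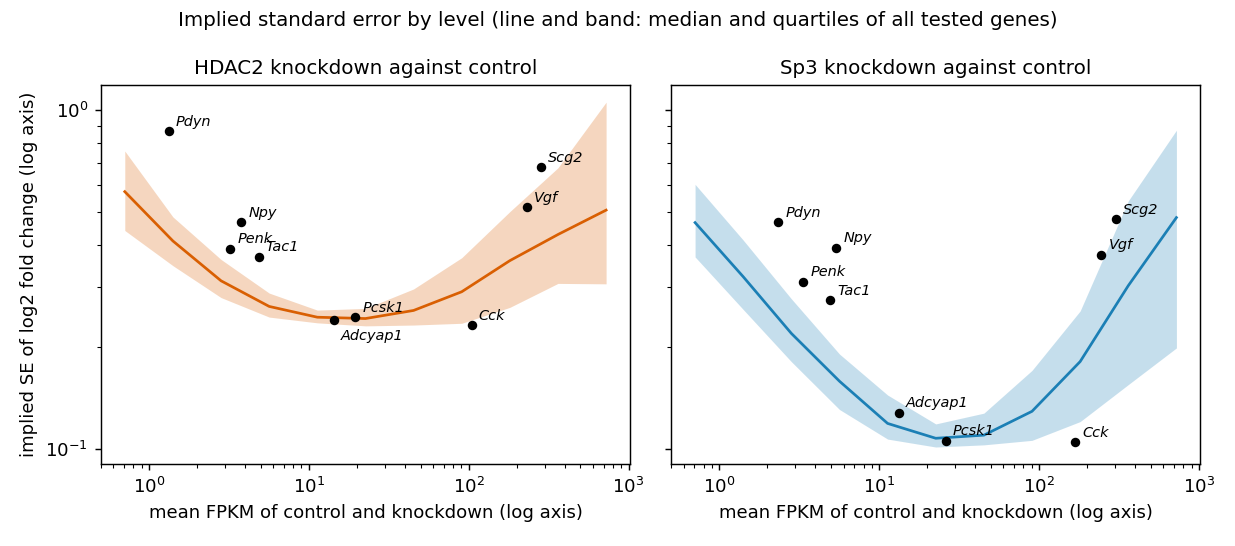
Implied standard error of the log2 fold change (log axis) against the mean FPKM of control and knockdown (log axis) for the 9 tested genes (points), with the median (line) and quartiles (band) of all tested genes in bins that double in FPKM. Pdyn, Npy, Penk and Tac1 lie above the band in both comparisons, Cck lies below it, and Scg2 and Vgf lie on the rising part at the right.

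Other genes of the pathway were read from 6 lists, and their counts are to be set against the share of all genes called. That share was 24.6% higher and 3.6% lower in HDAC2 knockdown by the authors' deposited table, and 10.2% and 7.59% after centring. In Sp3 knockdown it was 13.2% higher and 26.1% lower by the authors' deposited table, and 20.2% and 17.6% after centring. The lists' medians moved with the centring too, and are given both ways. Of the other precursors and small secreted proteins, 58 were listed and found in the tables. In HDAC2 knockdown 4 were higher and 3 lower of 23 tested by the authors' deposited table at q under 0.05, and 1 and 4 after centring, with a centred median of -0.29 that is 0.02 without centring. In Sp3 knockdown 9 were higher and 2 lower of 24, and 10 and 2 after centring, with a centred median of 0.33 that is 0.20 without centring. Sst, the precursor of the interneuron peptide somatostatin, stood at 76.0, 77.1 and 145 FPKM in control, HDAC2 and Sp3 knockdown. It rose in Sp3 knockdown (centred 1.07 ± 0.10, adjusted p from the authors' statistic = 2.22e-24) and differed between the knockdowns (1.36 ± 0.25, adjusted p = 3.24e-06). Apln, which encodes the peptide apelin, stood at 2.88, 1.94 and 8.36 FPKM and rose in Sp3 knockdown (centred 1.67 ± 0.17), as did Cbln4, a secreted synapse organizer gene (1.64 ± 0.17). After centring only, Apln was also lower in HDAC2 knockdown (-0.89 ± 0.31, adjusted p from the authors' statistic = 0.0289). Grp, the gastrin-releasing peptide gene, had an FPKM of 9.94 in HDAC2 and 20.1 in Sp3 knockdown and fell against control in HDAC2 knockdown (centred -1.46 ± 0.28, adjusted p from the authors' statistic = 4.20e-06). Like Cck and Pcsk1, Grp was higher in Sp3 than in HDAC2 knockdown (1.47 ± 0.32, adjusted p from the authors' statistic = 9.90e-05). Cbln2 rose in both knockdowns, with centred values of 0.81 ± 0.24 and 1.08 ± 0.15.

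Among 15 granins and other granule cargo genes, 2 were called higher and 1 lower of 12 tested by the authors' deposited table for HDAC2 knockdown, and 2 and 3 after centring, with a centred median of -0.47 that is -0.16 without centring. In Sp3 knockdown 3 were higher and 2 lower of 14, and 4 and 1 after centring, with a centred median of 0.20 that is 0.065 without centring. Bdnf, a neurotrophin packed into dense core granules, stood at 22.8, 16.6 and 32.6 FPKM in control, HDAC2 and Sp3 knockdown. It had the same order of groups as Cck, lower in HDAC2 (centred -0.78 ± 0.097) and higher in Sp3 knockdown (0.65 ± 0.060). Dkk3 and Tgfb2 of this list instead rose in HDAC2 knockdown (centred 1.47 ± 0.26 and 0.77 ± 0.235) and were not called in Sp3 knockdown. Dkk3 stood at 13.7, 47.2 and 11.7 FPKM in control, HDAC2 and Sp3 knockdown. It was lower in Sp3 than in HDAC2 knockdown (-1.57 ± 0.29, adjusted p from the authors' statistic = 2.15e-06). Nptx2, a secreted pentraxin of synapses, stood at 19.2, 13.3 and 27.6 FPKM and rose in Sp3 knockdown (centred 0.66 ± 0.10). After centring only, Nptx2 was also lower in HDAC2 knockdown (-0.84 ± 0.23, adjusted p from the authors' statistic = 0.00335). Scg3, a granin family gene, stood at 201, 179 and 137 FPKM and fell in Sp3 knockdown (centred -0.43 ± 0.042). The granin genes Chga and Chgb, given for their role and not by the fixed naming rule, were not called by the authors' deposited table. Chga stood at 166, 94.8 and 124 FPKM and Chgb at 114, 111 and 153. After centring, Chga was lower in HDAC2 knockdown (adjusted p from the authors' statistic = 0.00795) and Chgb higher in Sp3 knockdown (adjusted p = 0.0108).

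Of 21 genes for peptide processing and breakdown, 3 were higher and 1 lower of 18 tested by the authors' deposited table for HDAC2 knockdown, and 2 and 2 after centring, with a centred median of -0.15 that is 0.17 without centring. In Sp3 knockdown 7 were higher and 3 lower of 19, and 8 and 3 after centring, with a centred median of 0.20 that is 0.067 without centring. Pcsk2, the second major neuronal convertase, stood at 58.3, 79.0 and 114 FPKM in control, HDAC2 and Sp3 knockdown and rose in Sp3 knockdown (centred 1.10 ± 0.17, adjusted p from the authors' statistic = 2.46e-09). Its value in HDAC2 knockdown was 0.12 ± 0.41, and the difference between knockdowns did not pass (adjusted p from the authors' statistic = 0.130). Furin, a convertase of the general secretory pathway, rose in HDAC2 knockdown (centred 0.58 ± 0.14), and Ide, which degrades peptides, rose in Sp3 knockdown (0.74 ± 0.10). Ctsl, a cathepsin gene, fell in Sp3 knockdown (-0.65 ± 0.14).

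Of 32 genes listed for the making and release of dense core vesicles, 29 were matched by symbol. In HDAC2 knockdown 8 were higher and 2 lower of 28 tested by the authors' deposited table, and 3 and 3 after centring, with a centred median of -0.045 that is 0.27 without centring. In Sp3 knockdown 7 were higher and 3 lower of 29, and 11 and 1 after centring, with a centred median of 0.21 that is 0.076 without centring. Rab27b, a small GTPase gene of granule docking, rose in both (centred 1.05 ± 0.15 and 0.66 ± 0.13). Cadps2, a priming factor gene of dense core vesicles, rose in HDAC2 knockdown (0.48 ± 0.077), and Rims1, an active zone gene, rose in Sp3 knockdown (0.69 ± 0.055). Rims1 stood at 26.1, 40.8 and 38.3 FPKM in control, HDAC2 and Sp3 knockdown. The authors' test failed for Rims1 in the HDAC2 comparison, so its rise cannot be assigned to Sp3 knockdown alone.

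Of 58 neuropeptide receptor and receptor partner genes, 8 were higher and 1 lower of 37 tested by the authors' deposited table for HDAC2 knockdown, and 5 and 3 after centring, with a centred median of -0.10 that is 0.21 without centring. In Sp3 knockdown 16 were higher and 3 lower of 40, and 21 and 2 after centring, with a centred median of 0.33 that is 0.19 without centring. The oxytocin receptor gene Oxtr (centred 1.13 ± 0.16) and the neurotensin receptor gene Ntsr1 (0.66 ± 0.099) rose in Sp3 knockdown. Oxtr was also called higher in HDAC2 knockdown by the authors' deposited table (q = 0.0169), but not after centring (0.44 ± 0.27). Calcrl, a receptor gene of the calcitonin peptide family, rose in HDAC2 knockdown from 1.74 to 6.97 FPKM (centred 1.68 ± 0.27). The 16 receptor genes for the peptides of the 7 precursors were then read as a group chosen after the values were seen. In HDAC2 knockdown 1 was called higher and 0 lower of 9 tested by the authors' deposited table, and in Sp3 knockdown 4 higher and 0 lower of 10. After centring 0 were called in HDAC2 knockdown and 6 higher and 0 lower in Sp3 knockdown. The 4 called higher by the authors' deposited table were Npy1r, Npy2r, Tacr3 and Oprd1. Npy1r stood at 16.6, 20.4 and 20.5 FPKM in control, HDAC2 and Sp3 knockdown, and Tacr3, a tachykinin receptor gene, at 2.59, 2.48 and 4.90. The brain cholecystokinin receptor gene Cckbr stood at 18.8, 15.4 and 19.7 FPKM, and it differed between the knockdowns after centring (0.81 ± 0.27, adjusted p from the authors' statistic = 0.0217). Adcyap1r1, the PACAP receptor gene, stood at 43.2, 54.1 and 45.6 FPKM and was the 1 called in HDAC2 knockdown by the authors' deposited table. Its centred value there was 0.0077 ± 0.11, which was not called. After centring only, Adcyap1r1 was called higher in Sp3 knockdown (0.21 ± 0.041, adjusted p from the authors' statistic = 2.15e-06).

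Of the 36 listed CREB partners and activity-dependent regulators, 35 were matched by symbol. In HDAC2 knockdown 1 was higher and 15 lower of 35 tested by the authors' deposited table, and 0 and 19 after centring, with a centred median of -0.70 that is -0.38 without centring. In Sp3 knockdown 1 was higher and 17 lower of 35, and 2 and 16 after centring, with a centred median of -0.18 that is -0.32 without centring. All genes were also called lower more often than higher in Sp3 knockdown by the authors' deposited table (26.1% against 13.2%), but not after centring (17.6% against 20.2%). The immediate early genes Npas4 (-3.19 ± 0.26), Arc (-2.92 ± 0.25) and Fosb (-3.26 ± 0.36) fell in HDAC2 knockdown. They also fell in Sp3 knockdown (-0.68 ± 0.11, -0.94 ± 0.13 and -1.30 ± 0.17). Fos (-0.95 ± 0.12) and Btg2 (-1.26 ± 0.12) fell in Sp3 knockdown, and also in HDAC2 knockdown (-1.20 ± 0.23 and -1.50 ± 0.24). Other genes were called lower in 1 knockdown only. Jun fell in Sp3 knockdown (-1.09 ± 0.12) but was not called in HDAC2 knockdown (-0.54 ± 0.26, adjusted p from the authors' statistic = 0.141). Egr2 and Egr3, given outside the fixed naming rule, fell in HDAC2 knockdown (-2.40 ± 0.26 and -1.49 ± 0.26). They were not called in Sp3 knockdown (-0.084 ± 0.11 and 0.21 ± 0.13).

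**Figure D5:**
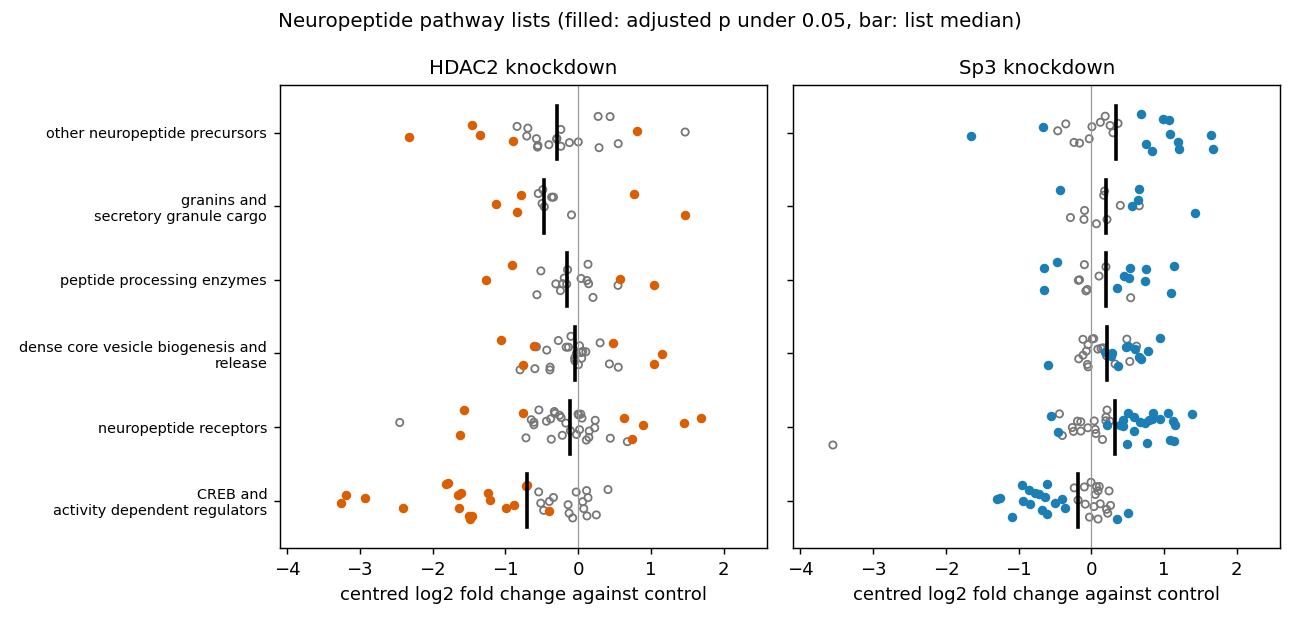
Centred log2 fold change of each tested gene of the 6 pathway lists in HDAC2 knockdown (left) and Sp3 knockdown (right). Filled points have an adjusted p under 0.05 and bars are list medians. The receptor list has a median of -0.10 (0.21 without centring) in HDAC2 and 0.33 (0.19) in Sp3 knockdown, and the activity-dependent regulators have medians of -0.70 (-0.38) and -0.18 (-0.32).

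Markers of other cells moved in the same cultures. Summed over 15 astrocyte markers the level was 661 FPKM in control, 1886 in HDAC2 and 573 in Sp3 knockdown, and over 15 oligodendrocyte lineage markers 228, 467 and 132. Of 13 tested astrocyte markers 9 were called higher in HDAC2 and 1 higher and 6 lower in Sp3 knockdown by the authors' deposited table, and of the oligodendrocyte lineage 12 of 15 higher and 8 of 10 lower. After centring the astrocyte counts were 8 higher, and 4 higher and 6 lower, and those of the oligodendrocyte lineage 11 higher and 8 lower. Summed over the 12 matched general neuron markers the level was 1517, 1487 and 1883 FPKM, with centred medians of -0.30 (0.02 without centring) in HDAC2 and 0.56 (0.43) in Sp3 knockdown. The 24 GABAergic interneuron markers, the class in which Npy, Penk and Sst are often found, summed to 340, 531 and 463 FPKM, with centred medians of 0.29 and 0.37 (0.61 and 0.24 without centring). In Sp3 knockdown 7 of 19 tested were called higher and 4 lower by the authors' deposited table, and 7 and 3 after centring. In HDAC2 knockdown 7 of 18 were higher and 0 lower, and 3 and 2 after centring. The 20 glutamatergic markers summed to 539, 646 and 586 FPKM. The 12 microglial markers summed to 6.65, 5.98 and 4.64 FPKM, with Tmem119, C1qc and Tyrobp listed at 0 in all 3 groups, and the 12 endothelial, pericyte and meningeal markers to 30.3, 44.7 and 53.6. The part of these shifts in the values of Cck, Pcsk1, Npy and Penk was not tested.

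The genes most like Cck and Penk in their pair of centred fold changes were read from 12938 others of at least 1 FPKM in control that were tested in both tables. Cck and Penk have the strongest deposited statistic of the members in HDAC2 and Sp3 knockdown, though after centring Cck has the smaller adjusted p in Sp3 knockdown too, and the measure is the distance in log2 over those 2 values. Nearest to Cck were Rab4b at 0.0877, Rnf141 at 0.134 and Chrna7 at 0.162. Rab4b stood at 33.3, 17.1 and 45.7 FPKM in control, HDAC2 and Sp3 knockdown. Nearest to Penk were Zfp180 at 0.0229, Fam189a1 at 0.0377 and Rnft2 at 0.0550. Zfp180 stood at 6.69, 17.5 and 18.9 FPKM. With 3 group values per gene this likeness is a description only.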

How the data were processed

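The sources are 2 tables, 1 for each knockdown against the control. Per the submitters' processing notes reads were handled with TopHat, Bowtie and Cuffdiff on mouse build mm9. Versions, annotation and strand setting: not given in the sources used here. For each gene the authors deposited 1 FPKM per group, the log2 ratio of the groups, a statistic (a score of no set range) and its p-value and q-value. Control FPKM is identical in both tables, so the comparisons share the control. The depth of the libraries is unknown.

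A call needs the authors' test to have run and a deposited q-value under 0.05. The sign of the deposited statistic is opposite to the fold, so it was reversed, and the SE is the log2 fold change over that statistic (undefined values or those over 5 were dropped, 7 genes in each table). Folds against 0 (81 and 73 genes) were not centred. Centring used the median over genes of at least 1 FPKM. The centred test and the test of the difference use a normal p and Benjamini-Hochberg adjustment over all tested genes. They were run on simulated data that drew normal errors with the same implied SE, separately for each knockdown. Such data check the computation only, and cannot check the normal reference, the SE itself or the shared control. Alternatives varied thresholds, filters, scaling, pseudocounts and the reference distribution.

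The members and lists were chosen with earlier results of these data known. Named list genes are the up to 3 called genes per list and comparison with the smallest p, of which the text gives a part, and values outside that rule are named as such. Sequences are from RefSeq on GRCm38.p6, loci from the tables in mm9. Computations used Python 3.11.15, pandas 2.3.3, NumPy 2.4.6 and SciPy 1.17.1.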

Additional observations from a re-analysis of the deposited data

How the results depend on the processing

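The called members were Cck, Penk and Pcsk1 in HDAC2 knockdown and Cck, Npy and Penk in Sp3 knockdown. They were the same genes with centring, upper-quartile scaling, adjustment within the table and a minimum of 1 FPKM. Stricter settings removed Penk in HDAC2 knockdown (centred, adjusted p under 0.01) and Cck in Sp3 knockdown (log2 fold change of at least 0.58). A threshold of 0.10 added Npy in HDAC2 knockdown, or Vgf after centring, and Pdyn for the difference between knockdowns. With a t distribution of 2 degrees of freedom in place of the normal, 0 members were called in either knockdown or for the difference, and 0 of all genes tested. By that t distribution 2 members in HDAC2 knockdown (Cck and Pcsk1), 3 in Sp3 knockdown (Cck, Npy and Penk) and 2 for the difference (Cck and Pcsk1) had an unadjusted p under 0.05. How many of all genes did so is not given here, so these counts are no result about the members. The calls thus rest on the authors' normal reference. All 18 centred values of the members kept their side of the threshold without centring, with the upper quartile and with the median over genes of at least 10 FPKM. Of these, 17 kept their direction without centring and 1 did not, Pcsk1 in Sp3 knockdown, which was not called and went from 0.094 to -0.038. All 18 kept their direction with the other centres and with both pseudocounts. With a pseudocount of 1 FPKM, Penk in Sp3 knockdown moved to 1.22. Called genes in the lists changed by more than 1.5 times in some cases. In HDAC2 knockdown the granule cargo list went from 3 to 5 after centring, and the vesicle list from 10 to 6 after centring and to 6 at q under 0.01. At q under 0.01 the other precursors went from 7 to 3 in HDAC2 knockdown and the vesicle list from 10 to 6 in Sp3 knockdown.

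No paired analysis was possible because the tables hold 1 value per group with no value per library, and leaving out a replicate was not run for that reason. Read depth is unknown, and Crh was too low for the authors' test.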
